A study of Mus musculus with 8 samples.

Results

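The comparison described here is the interaction of RB status with recurrence, that is, the log2 change after recurrence in Cre cells (Cre Recurred minus Cre Naïve) minus the log2 change after recurrence in GFP cells (GFP Recurred minus GFP Naïve). It was taken over all 8 arrays of the series, 2 in each of 4 populations, and a positive value means that the signal moved further up, or less far down, in Cre cells. All 4 populations were mouse adult fibroblasts (MAFs) grown from peritoneal fascia of mice with floxed Rb, and all carried retroviral p53DD, a dominant negative p53, so the controls lacked normal p53 function as well. The Cre Recurred and Cre Naïve cells had received adenovirus with GFP and Cre recombinase, which removes a floxed exon of Rb, and the GFP Recurred and GFP Naïve cells had received adenovirus with GFP alone. Recurred cells had been exposed to cisplatin (CDDP), a DNA crosslinking drug, for 24 hours and had then grown back, whereas Naïve cells were untreated. Transduced cells had been pooled after selection, and whether the recurred populations stayed mixed or came from few clones is not given. The labels call the 2 arrays of a population biological replicates. RNA was measured on whole-genome Affymetrix mouse arrays, and the values are log2 signals from the Robust Multichip Average (RMA).

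RB binds E2F transcription factors and keeps genes of DNA replication off until a cell commits to division, and it takes part in the arrest and senescence that follow DNA damage. Cells that grow back after a drug descend from those that survived, so a recurred population can differ from the untreated one through selection as well as through induced expression. An interaction separates genes for which recurrence and RB status are not additive. Such genes can move in opposite directions in the 2 genotypes, in 1 genotype alone, or in both by unequal amounts, and these cases were kept apart by asking whether the change within each genotype reached 1.5-fold.

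The targeted gene was low on all Cre arrays. At its brighter probe set Rb1 had signals of 4.98 and 5.45 in Cre Recurred cells, 6.21 and 5.72 in Cre Naïve cells, 8.21 and 8.78 in GFP Recurred cells, and 7.98 and 8.07 in GFP Naïve cells. Its interaction was -1.22 (standard error 0.37) and did not pass in limma (adjusted p = 0.38). Of 17 fibroblast markers, 15 had a mean signal above every array's median, against 4 of 15 leukocyte, 1 of 9 endothelial and 6 of 21 mesothelial and epithelial markers. The leukocyte markers averaged between 4.84 and 4.89 on Cre Recurred, 4.81 and 4.85 on Cre Naïve, 4.88 and 4.90 on GFP Recurred and 4.77 and 4.97 on GFP Naïve arrays, with Ptprc, the pan-leukocyte marker CD45, at a mean of 3.1. By correlation across probe sets, 5 of the 8 arrays stood closest to an array of another population. Cre Recurred replicate 2 and Cre Naïve replicate 2 were closest to each other (Pearson r = 0.992), against 0.990 and 0.985 with their own replicates. Cre Naïve replicate 1 and GFP Naïve replicate 1 were closest to each other (r = 0.994), against 0.985 and 0.987 with their own replicates, and GFP Naïve replicate 2 was closest to GFP Recurred replicate 1 (r = 0.991). The labels were taken as given, and counts are also given with each array left out.

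The study called changes at 1.5-fold with an FDR below 25%, taken here as a limma adjusted p under 0.25. At these thresholds 180 of 45037 probe sets passed in the interaction (0.4%), 70 higher (0.155%) and 110 lower (0.244%) in Cre than in GFP cells. They belonged to 130 named genes, 152 of the probe sets carrying 1 symbol. At an adjusted p under 0.05 the count was 0, the lowest adjusted p being 0.0557. Without adjustment, 3672 probe sets (8.15%) had a p under 0.05 with a 1.5-fold difference. The smallest interaction that passed was 0.93 on the log2 scale, and no smaller difference passed with 2 arrays per population. Single arrays moved this count widely. Leaving out Cre Naïve replicate 2 gave 1611 calls, leaving out Cre Naïve replicate 1 gave 141, and leaving out Cre Recurred replicate 2 gave 2953. Leaving out GFP Naïve replicate 2 gave 371 and GFP Naïve replicate 1 gave 15. No probe set passed once Cre Recurred replicate 1 or either of the GFP Recurred arrays was left out.

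The called probe sets mostly set recurred cells apart, not naïve ones. Cre Recurred and GFP Recurred cells differed by 1.5-fold or more for 179 of the 180, whereas Cre Naïve and GFP Naïve cells did so for 28. Of these 28, 22 were among the 69 that changed by 1.5-fold or more in opposite directions in the 2 genotypes. Both Cre Recurred arrays lay below all 6 other arrays for 98 probe sets and above them for 58. Both GFP Recurred arrays were the highest for 59 and the lowest for 49. A Cre Naïve or GFP Naïve pair stood outside all other arrays in 9 cases. Since the contrast was used to choose these probe sets, the counts describe them and test nothing further. Such array patterns were not counted over all 45037 probe sets. Of all 45037, 3988 passed the study's thresholds between Cre Recurred and GFP Recurred cells and 0 between Cre Naïve and GFP Naïve cells. The difference between recurred cells is thus not particular to the called probe sets.

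By the 1.5-fold limit within each genotype, 69 of the 180 probe sets (38.3%) moved in opposite directions, 84 (46.7%) reached it in Cre cells only, 18 (10%) in GFP cells only, 2 in both genotypes in the same direction and 7 in neither. Over all 45037 probe sets, regardless of any test, these classes held 1.53%, 5.70%, 2.40%, 0.48% and 89.9%. Opposite changes add up in the difference that was tested, so their larger share among the calls is built into the contrast. The limit is not a gap in the data, since 53 of the 180 had a change within 0.1 of it in at least 1 genotype. With a limit of 1.2-fold, 140 were opposite and 32 changed in Cre cells only, and with a limit of 2-fold 21 were opposite. Within a genotype, all 84 of the Cre only class and 50 of the 69 opposite probe sets passed the study's thresholds in Cre cells. In GFP cells, 1 opposite probe set (Tnfrsf11b) and 3 of the GFP only class passed.

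**Figure D1:**
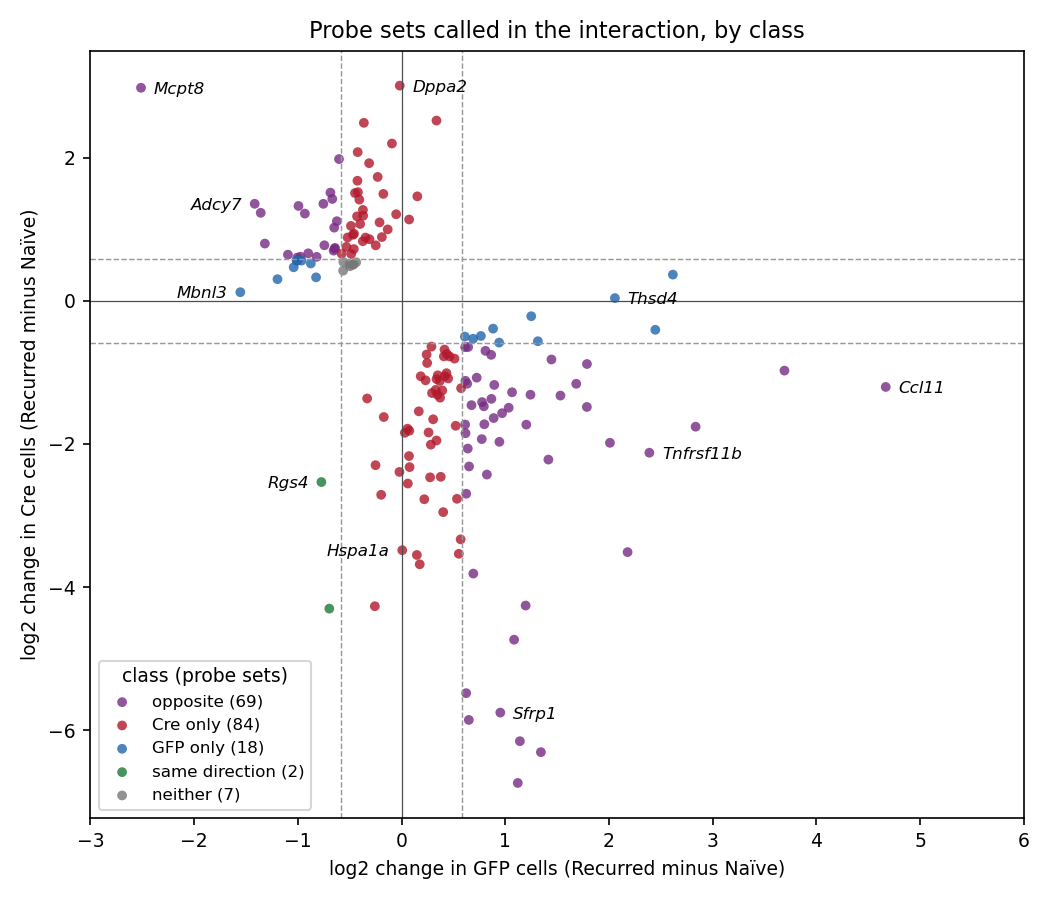
Log2 change after recurrence in Cre cells (vertical axis) against that in GFP cells (horizontal axis) for the 180 probe sets called in the interaction, with dashed lines at 1.5-fold and colours for the classes. Most points lie where the changes have opposite signs, and Hspa1a and Dppa2 lie on the line of no change in GFP cells.

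Tnfrsf11b encodes osteoprotegerin, a secreted decoy receptor that binds RANKL and keeps it from its receptor RANK. Its signal was 4.35 and 4.19 in Cre Recurred cells, against 6.17 and 6.62 in Cre Naïve cells, and 7.40 and 7.76 in GFP Recurred cells, against 5.41 and 4.97 in GFP Naïve cells. The Cre Recurred arrays were the lowest and the GFP Recurred arrays the highest of the 8, with both naïve populations in between and no overlap. Tnfrsf11b fell by 2.12 on the log2 scale in Cre cells (4.35-fold, adjusted p = 0.052 in limma) and rose by 2.39 in GFP cells (5.24-fold, adjusted p = 0.17). The interaction was -4.51 (standard error 0.32, 95% interval -5.27 to -3.76, n = 2 arrays per population), a 22.8-fold difference between the 2 changes, with an adjusted p of 0.056 in limma. It was the only probe set among the 69 whose changes passed within both genotypes. A dimmer Tnfrsf11b probe set had an interaction of -1.05 and did not pass (adjusted p = 0.51). The call was lost without Cre Recurred replicate 1, GFP Recurred replicate 1 or GFP Recurred replicate 2 (adjusted p up to 0.40), and the interaction then stayed between -4.74 and -4.28 over all arrays left out.

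Most of the opposite class ran in the direction of Tnfrsf11b, with 48 probe sets down in Cre and up in GFP cells and 21 the other way. By sign alone and regardless of any test, 4418 of 18193 genes at their brightest probe sets were down in Cre and up in GFP cells. The reverse held for 5233. The size of the change was larger in Cre cells for 49 of the 69, with a median absolute log2 change of 1.42 in Cre cells and 0.89 in GFP cells.

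Sfrp1, a secreted protein that binds Wnt ligands and blocks their receptors, had signals of 5.65 and 6.88 in Cre Recurred, 12.81 and 11.23 in Cre Naïve, 13.02 and 13.20 in GFP Recurred and 12.28 and 12.03 in GFP Naïve cells. The 2 Cre Recurred arrays lay far below the rest, and the GFP Recurred arrays slightly above all others. The interaction of -6.71 (standard error 0.78, limma adjusted p = 0.17) was made up of -5.75 in Cre cells and 0.95 in GFP cells, and the GFP change on its own did not pass (adjusted p = 0.87). Of 5 Sfrp1 probe sets, 4 passed in the interaction and all 5 were of the opposite class.

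Ccl11, the eosinophil chemokine eotaxin, had the reverse balance. Its signals were 3.90 and 4.04 in Cre Recurred, 6.21 and 4.14 in Cre Naïve, 9.65 and 10.32 in GFP Recurred and 5.31 and 5.32 in GFP Naïve cells. The GFP Recurred arrays stood above all others, while Cre Naïve replicate 2 lay next to the Cre Recurred arrays and Cre Naïve replicate 1 above them. The interaction was -5.87 (standard error 0.84, limma adjusted p = 0.17), from a signal 2.30-fold lower in Cre Recurred than in Cre Naïve cells and 25.4-fold higher in GFP Recurred than in GFP Naïve cells. Neither change passed on its own in limma (adjusted p = 0.47 and 0.34), so the opposite class of Ccl11 rests on 1 of the Cre Naïve arrays.

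Among the other opposite genes that were lower, Ror2, a receptor tyrosine kinase for Wnt5a, had an interaction of -3.25, with changes of -2.43 in Cre and 0.82 in GFP cells. Il20ra, a receptor subunit for cytokines of the interleukin 20 group, had one of -2.19, Nacc2, a transcriptional repressor of the BTB family, one of -2.47, and Rnf157, a ubiquitin ligase, one of -2.13. For AW551984 it was -6.10, with 3.84 and 4.06 in Cre Recurred, 10.53 and 8.34 in Cre Naïve, 10.81 and 10.94 in GFP Recurred and 10.23 and 10.27 in GFP Naïve cells. All 5 genes named in this paragraph had a limma adjusted p of 0.17. In each, the larger part of the difference lay in the Cre cells.

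Several more were picked after their values were seen. Lum, the collagen-binding proteoglycan lumican, had signals of 4.61 and 6.28 in Cre Recurred, 13.15 and 10.35 in Cre Naïve, 12.86 and 13.13 in GFP Recurred and 12.23 and 11.06 in GFP Naïve cells. The interaction of -7.65 (standard error 1.31, limma adjusted p = 0.23) had a wide interval, from -10.7 to -4.55, and the Lum call was lost in 8 of 17 alternatives. Spon1, a matrix protein, had an interaction of -4.67, mostly from the GFP cells, where its change was 3.69. Dkk3 and Nbl1, secreted proteins of the dickkopf and DAN families, had interactions of -2.56 and -2.71. Of the genes that the study also measured by RT-PCR, Sfrp1 and Lum passed in the interaction. The others did not pass. Sfrp2 had -4.93 and Clu -3.73 (limma adjusted p = 0.37 and 0.46). Gpr149 had 3.02 and Pla2g7 0.85 (limma adjusted p = 0.38 and 0.74).

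In the higher direction, the 8 opposite genes with the smallest p were Ap1s3, Rps20, Metap2, Rorb, Vstm5, Adcy7, Memo1 and Col8a1, with interactions from 1.35 for Metap2 to 2.77 for Adcy7 and adjusted p values of 0.17 in limma. Adcy7, an adenylyl cyclase that makes cyclic AMP, had signals of 7.74 and 7.41 in Cre Recurred, 5.92 and 6.52 in Cre Naïve, 4.95 and 5.02 in GFP Recurred and 6.60 and 6.20 in GFP Naïve cells. The 2 recurred populations thus took the highest and the lowest place, and the naïve arrays of both genotypes overlapped in the middle. Its changes were of like size, 1.35 in Cre cells and -1.42 in GFP cells. The called probe set of Ap1s3 had a mean signal of 4.69, below every array's median. Those of Adcy7, Memo1 and Col8a1 given here were not the brightest of their genes.

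Rorb, an orphan nuclear receptor, showed the same order of populations, with 7.09 and 6.59 in Cre Recurred, 5.50 and 5.53 in Cre Naïve, 4.81 and 5.17 in GFP Recurred and 6.02 and 5.95 in GFP Naïve cells. Its 2 other called probe sets fell into the Cre only class, with interactions of 1.95 and 1.96 and GFP changes of -0.45 and -0.23, so the class of Rorb rests on 1 probe set. Col8a1, a chain of the network-forming collagen VIII, had a change of 0.80 in Cre cells and -1.32 in GFP cells, and its 3 probe sets had interactions of 2.12, 2.60 and 1.99, of which only the first passed. Rps20, a protein of the small ribosomal subunit with many copies in the genome, had an interaction of 1.56, which could include signal from those copies. Metap2, which removes the first methionine from new proteins, changed by 0.70 in Cre and -0.65 in GFP cells. Its signals were 5.07 and 5.10 in Cre Recurred and 5.08 and 5.05 in GFP Naïve cells, and these arrays overlapped. They were 4.36 and 4.40 in Cre Naïve and 4.36 and 4.46 in GFP Recurred cells, which overlapped as well. Cre Naïve minus GFP Naïve was -0.68 for Metap2, -0.80 for Rps20 and -0.83 for Vstm5. Cre Recurred minus GFP Recurred was 0.67, 0.76 and 0.78 for the same genes. The called probe sets of Rps20 and Metap2 had mean signals of 5.13 and 4.74, below every array's median. Neither was the brightest probe set of its gene. Both changes of Metap2 lay near the 1.5-fold limit, so its class depends on where that limit is set.

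Mcpt8, a serine protease of the mast cell protease family, had the largest positive interaction among the 180, 5.49 (standard error 0.86, limma adjusted p = 0.19), and was named after its values were seen. Its signals were 10.93 and 9.86 in Cre Recurred, 7.20 and 7.64 in Cre Naïve, 6.68 and 6.13 in GFP Recurred and 9.84 and 7.99 in GFP Naïve cells. The GFP Naïve arrays differed by more than the Cre Naïve arrays did, and 1 of them came close to the level of a Cre Recurred array. Gzmd, a granzyme, was higher as well, with an interaction of 2.85 that came mostly from Cre cells. Its signals were 5.35 and 4.51 in Cre Recurred and 2.30 and 2.59 in Cre Naïve cells, the latter near the bottom of the range. The called Gzmd probe set had a mean signal of 3.13, below every array's median, and was not the brightest of its gene.

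**Figure D2:**
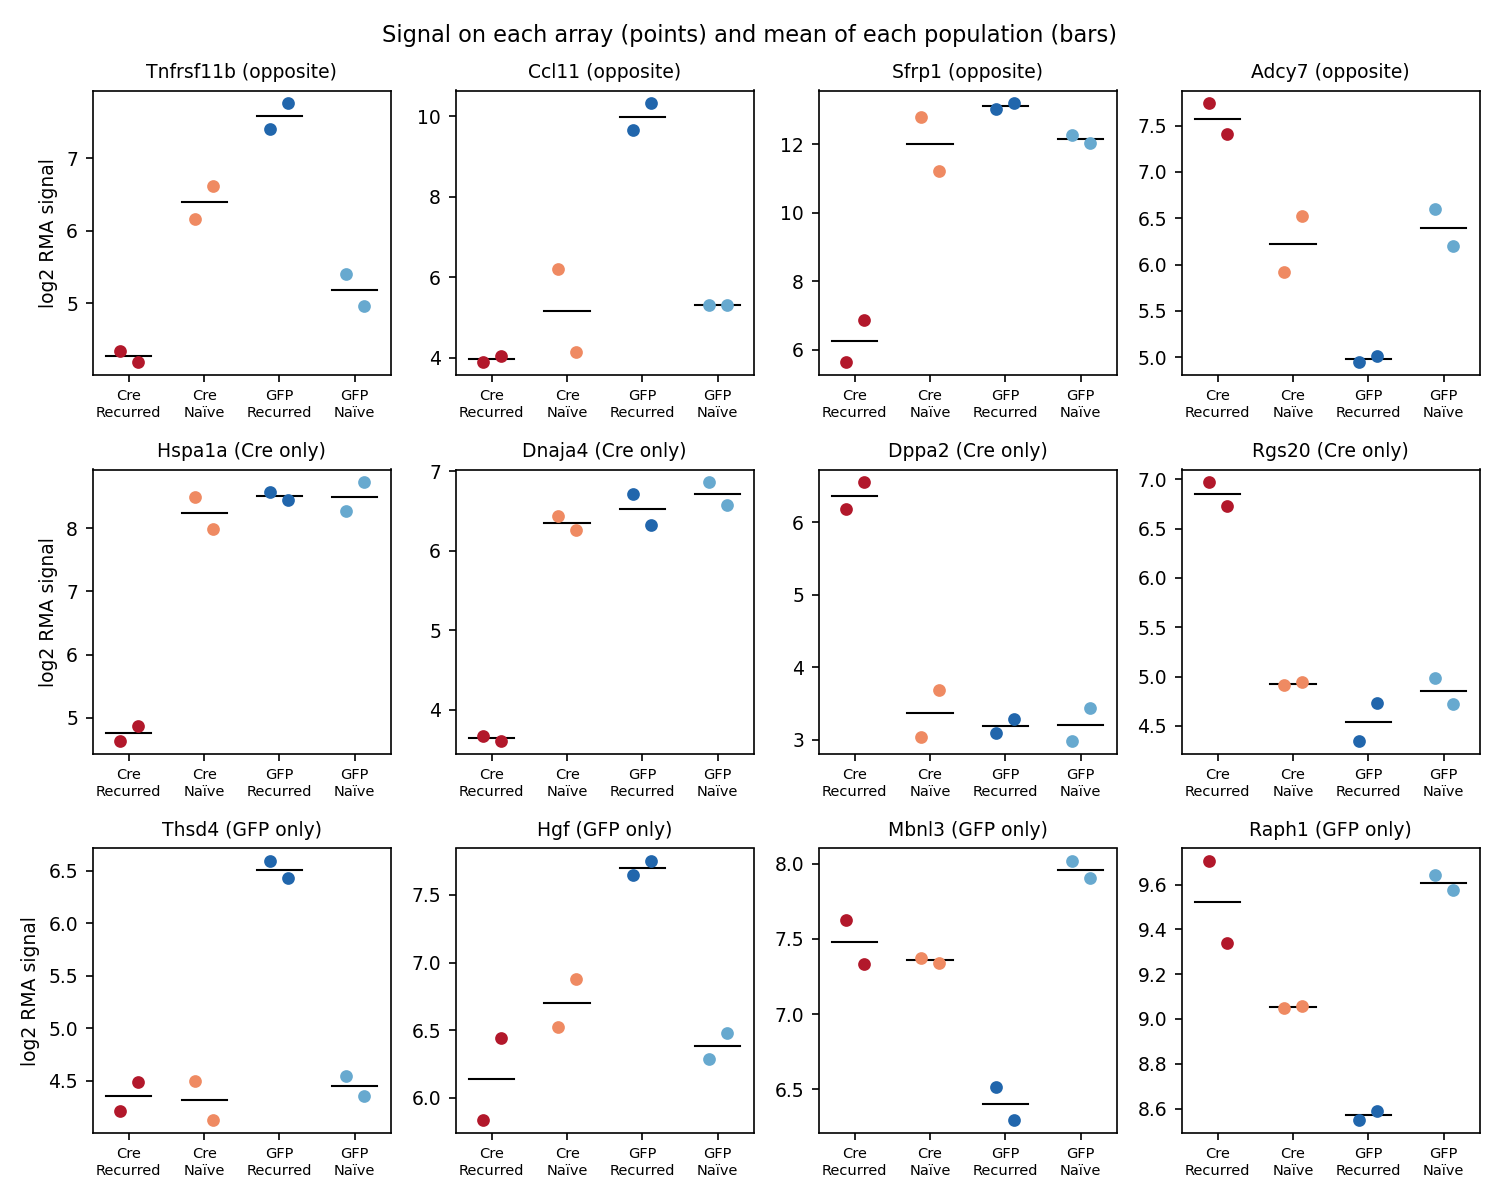
Log2 RMA signal of 12 called genes on each of the 8 arrays (points) with the mean of each population (bars), in the order Cre Recurred, Cre Naïve, GFP Recurred, GFP Naïve; each panel has its own vertical scale. In the top row the 2 recurred populations lie on opposite sides of the naïve ones, and in the middle row Cre Recurred alone stands apart. In the bottom row GFP Recurred lies outside all other arrays. In that row Raph1 is also higher, and Hgf lower, in Cre Recurred than in Cre Naïve cells, and the GFP Naïve arrays of Mbnl3 lie above all Cre arrays.

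The Cre only class, 84 probe sets of 66 genes, held 34 that were higher and 50 that were lower. Both Cre Recurred arrays stood outside all 6 other arrays for each of the 84, a pattern that was not counted over all probe sets. The 84 were chosen by the contrast and the class, which favour this pattern, so the count tests nothing further. A change under 1.5-fold in GFP cells is not a shown absence of change. The 95% interval of the GFP change lay within 1.5-fold for 17 of the 84, and for 23 the GFP change had an unadjusted p under 0.05.

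Hspa1a encodes the heat-inducible HSP70, a chaperone that holds and refolds damaged proteins. It had signals of 4.64 and 4.88 in Cre Recurred, 8.49 and 7.99 in Cre Naïve, 8.57 and 8.44 in GFP Recurred and 8.27 and 8.72 in GFP Naïve cells. The 2 Cre Recurred arrays stood apart, and the 6 others overlapped one another. Hspa1a fell by 3.48 in Cre cells (11.2-fold, limma adjusted p = 0.012), while the GFP change was 0.01 (95% interval -0.52 to 0.53, within 1.5-fold). The interaction was -3.49 (standard error 0.32, 95% interval -4.24 to -2.75), with an adjusted p of 0.091 in limma. As for Tnfrsf11b, its call was lost without Cre Recurred replicate 1 or either GFP Recurred array (adjusted p up to 0.52).

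Dnaja4, a J-domain protein that hands clients to HSP70, had the same shape. Its signals were 3.67 and 3.61 in Cre Recurred, 6.44 and 6.27 in Cre Naïve, 6.72 and 6.33 in GFP Recurred and 6.86 and 6.58 in GFP Naïve cells. Its interaction was -2.51 (standard error 0.25, limma adjusted p = 0.12), with a GFP change of -0.20. A second, brighter probe set of Dnaja4 passed too with -2.05, and the remaining one, at -0.62, did not.

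Of 32 measured heat shock and chaperone genes, 2 passed (Hspa1a and Dnaja4), both lower, against 33 higher and 65 lower of 18193 genes at their brightest probe sets. The median interaction of the list was -0.07, against 0.04 over all genes, and it changed sign in 3 of 11 alternatives. By fold alone and regardless of any test, 7 of the 32 changed in Cre cells only, as did 1257 of the 18193 genes. Hspb6 and Hspb1, small heat shock proteins, had interactions of -1.55 and -0.65 that did not pass (limma adjusted p = 0.28 and 0.37), and Hspb6 passed in 4 of 17 alternatives. Hspa8, the constitutive HSC70, had one of 0.14 with a 95% interval from -0.27 to 0.54, and Cacybp and Hspa4l had positive values of 0.78 and 1.82 that did not pass either. Hspa1b, which encodes nearly the same protein as Hspa1a, had -0.69 at its brightest probe set (adjusted p = 0.46). Its signals were 9.85 and 10.26 in Cre Recurred, 10.97 and 11.14 in Cre Naïve, 11.15 and 11.27 in GFP Recurred and 11.34 and 11.70 in GFP Naïve cells. The Cre Recurred arrays were the lowest here as well, by a smaller margin, and probes of the 2 near-identical genes can share signal, so their separate values are uncertain.

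**Figure D3:**
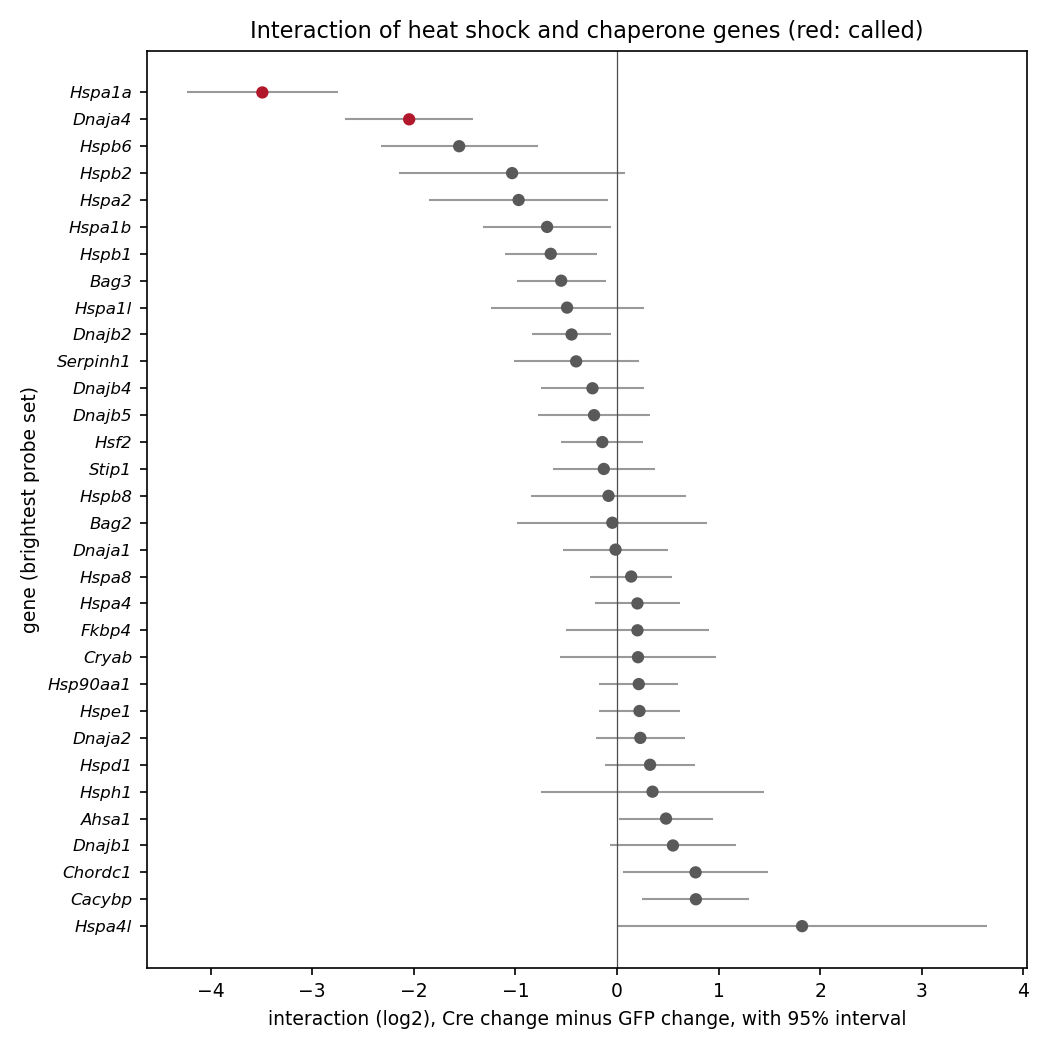
Interaction (horizontal axis, log2, Cre change minus GFP change) with its 95% interval for the 32 measured heat shock and chaperone genes at their brightest probe sets, with called genes in red. Hspa1a at -3.49 and Dnaja4 at -2.05 are the called genes, and the other 30 spread on both sides of 0. Hspb6, not called, lies near Dnaja4 at -1.55.

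The sequence upstream of these genes is shown because the paralogs Hspa1a and Hspa1b had interactions of unlike size, a difference that was not tested, while carrying almost the same promoter. Heat shock factors bind inverted repeats of the letters NGAAN, and the motifs searched were GAANNTTC and TTCNNGAA, each of which reads the same on both strands and is in capitals below. The sequences are the 250 bases before the annotated start from RefSeq on GRCm38.p6, for Hspa1a at chr17:34972157-34972406 (minus strand) and for Hspa1b at chr17:34959239-34959488 (minus strand), each 5′ to 3′.
Hspa1a: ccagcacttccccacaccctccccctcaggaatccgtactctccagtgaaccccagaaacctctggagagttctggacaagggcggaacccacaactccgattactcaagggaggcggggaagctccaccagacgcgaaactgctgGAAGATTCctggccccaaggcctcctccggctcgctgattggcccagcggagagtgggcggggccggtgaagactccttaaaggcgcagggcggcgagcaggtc
Hspa1b: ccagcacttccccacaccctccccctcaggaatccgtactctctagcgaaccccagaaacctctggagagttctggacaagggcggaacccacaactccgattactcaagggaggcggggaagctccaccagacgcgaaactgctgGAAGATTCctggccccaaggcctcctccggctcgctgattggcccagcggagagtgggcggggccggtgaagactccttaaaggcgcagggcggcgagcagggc
They were identical at 247 of 250 bases, and both held 1 motif, beginning 104 bases before the start. For Dnaja4, which has 2 listed starts, the bases around the motifs before the second start are shown, at chr9:54699458-54699487 and chr9:54699496-54699525 (plus strand).
Dnaja4 site a: ggaacctccgcGAACGTTCtgggcctatgt
Dnaja4 site b: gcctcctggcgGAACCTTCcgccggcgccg
Dnajb1, an HSP40 gene, held neither motif before its 2 listed starts. Among 14368 genes of the array with a promoter entry of 300 bases, 15.0% held 1 of the motifs at some listed start, as did 14 of 28 heat shock and chaperone genes, and 11 of the 101 called genes with an entry. The median number of CG dinucleotides in those 300 bases was 18 for all genes on the array. In the Cre only class it was 26 for the 31 lower genes with an entry and 18 for the 23 higher ones. For the opposite class it was 19 for the 19 lower and 22.5 for the 14 higher genes. In the GFP only class it was 6.5 for the 4 lower and 39.5 for the 4 higher genes. A match is a description of the letters and was not tested as a site.

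Besides the chaperones, the lower Cre only genes held 2210016F16Rik, which shared the smallest adjusted p with Tnfrsf11b. It had signals of 6.28 and 6.49 in Cre Recurred, 10.20 and 9.66 in Cre Naïve, 10.37 and 10.23 in GFP Recurred and 10.03 and 10.26 in GFP Naïve cells, with an interaction of -3.70 (standard error 0.29, limma adjusted p = 0.056). Its 2 other probe sets, at -1.85 and -0.04, did not pass (limma adjusted p = 0.43 and 0.97). Klhl23, of the kelch-like family, had an interaction of -2.29 at the same adjusted p. Its GFP change of 0.34 had an interval from 0.04 to 0.64, which lay above 0 and reached past 1.5-fold.

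Wnt4, a secreted Wnt ligand, had 5.51 and 5.65 in Cre Recurred, 8.27 and 8.43 in Cre Naïve, 7.81 and 7.91 in GFP Recurred and 7.85 and 6.80 in GFP Naïve cells, and an interaction of -3.30 (limma adjusted p = 0.17). Its Cre Recurred arrays were the lowest, and 1 GFP Naïve array lay below the rest of the others. Tfpi2, an inhibitor of serine proteases that act on the matrix, had an interaction of -3.86 and a change of -3.68 in Cre cells. Prkar1b, a regulatory subunit of protein kinase A, had one of -2.84, and Npepl1, an aminopeptidase-like protein, one of -1.34. Further called probe sets of Prkar1b had smaller interactions of -1.73, -1.66 and -1.57. Kctd15 and Auts2, named after their values were seen, had interactions of -3.90 and -4.09 with GFP changes of 0.57 and 0.55, just under the limit. Another called probe set of Auts2 fell into the opposite class, with an interaction of -3.32 and a GFP change of 0.62.

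Among the higher Cre only genes, Dppa2, a chromatin factor of pluripotent cells, had signals of 6.19 and 6.55 in Cre Recurred, 3.04 and 3.69 in Cre Naïve, 3.09 and 3.29 in GFP Recurred and 2.99 and 3.43 in GFP Naïve cells. The signal was near the bottom of the range on 6 arrays and higher on the 2 Cre Recurred arrays only. The interaction was 3.02 (standard error 0.37, limma adjusted p = 0.17) and the GFP change -0.02. Akap3, a kinase anchor protein of sperm, and Iqcg, a protein of flagella and cilia, had interactions of 2.10 and 1.94. Their called probe sets had mean signals of 3.85 and 3.89, below every array's median, and that of Akap3 was not its brightest. Of 25 measured pluripotency and germline genes, Dppa2 was the only one that passed, and the list's median interaction was 0.09.

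Rgs20, which speeds the shut-off of G protein α subunits, had 6.97 and 6.73 in Cre Recurred, 4.91 and 4.94 in Cre Naïve, 4.35 and 4.73 in GFP Recurred and 4.98 and 4.72 in GFP Naïve cells, and an interaction of 2.23 (standard error 0.25, limma adjusted p = 0.17). Only Cre Recurred cells stood apart. Gmps, the GMP synthetase of purine synthesis, Slc1a3, a glutamate transporter, St3gal5, the sialyltransferase that makes ganglioside GM3, and Mctp1, a membrane protein with C2 domains, had interactions of 1.28, 1.39, 1.40 and 1.13. The GFP changes of Gmps and St3gal5, -0.53 and -0.52, came close to the limit for the opposite class. The called Gmps probe set had a mean signal of 4.48, below every array's median, and was not the brightest of its gene. Fanca, of the Fanconi anaemia core complex that acts on DNA crosslinks, was named after its values were seen, with changes of 0.83 in Cre and -0.37 in GFP cells and an interaction that passed (limma adjusted p = 0.22).

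The GFP only class was small, with 18 probe sets of 9 named genes, 8 higher and 10 lower. In 2 of the 18 the 95% interval of the Cre change lay within 1.5-fold, and for 12 the Cre change had an unadjusted p under 0.05.

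Thsd4, a protein of microfibrils in the matrix, had 4.22 and 4.49 in Cre Recurred, 4.50 and 4.13 in Cre Naïve, 6.59 and 6.43 in GFP Recurred and 4.55 and 4.35 in GFP Naïve cells. The Cre arrays of both kinds and the GFP Naïve arrays overlapped, and the GFP Recurred arrays lay above them. Thsd4 rose by 2.06 in GFP cells (limma adjusted p = 0.17), the Cre change was 0.04 (95% interval -0.38 to 0.46), and the interaction was -2.02 (standard error 0.25, limma adjusted p = 0.17).

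Mbnl3, an RNA-binding regulator of splicing, ran the other way, with 7.62 and 7.33 in Cre Recurred, 7.37 and 7.34 in Cre Naïve, 6.51 and 6.30 in GFP Recurred and 8.01 and 7.91 in GFP Naïve cells. The GFP Naïve arrays lay above all Cre arrays, and Cre Naïve minus GFP Naïve was -0.60. Mbnl3 fell by 1.55 in GFP cells (limma adjusted p = 0.17), and its Cre change was 0.12 (95% interval -0.23 to 0.47). These 2 named genes and 1 probe set without a symbol were the members of the class that passed within GFP cells.

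Hgf, the growth factor that activates the Met receptor, had 5.84 and 6.44 in Cre Recurred, 6.53 and 6.88 in Cre Naïve, 7.65 and 7.75 in GFP Recurred and 6.29 and 6.48 in GFP Naïve cells. The GFP Recurred arrays were highest, but the Cre Recurred arrays also lay below the Cre Naïve ones, and the Cre change of -0.57 (95% interval -1.09 to -0.04) missed the 1.5-fold limit narrowly. Its interaction was -1.88 (limma adjusted p = 0.22), and another, brighter Hgf probe set fell into the opposite class without passing. Gm4951, a GTPase of the interferon-inducible family, had an interaction of -2.85 with a change of 2.45 in GFP cells, and its GFP Naïve arrays, at 6.08 and 5.10, differed widely. Snhg14, a noncoding RNA, and Ccdc106 had interactions of -1.53 and -1.47.

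Raph1, the actin regulator lamellipodin, and the receptor phosphatase Ptprg had GFP changes of -1.04 and -0.82 that did not pass on their own and interactions of 1.51 and 1.15 that did. Dipk2a had 8.73 and 8.63 in Cre Recurred, 8.28 and 8.48 in Cre Naïve, 7.48 and 7.42 in GFP Recurred and 8.51 and 8.78 in GFP Naïve cells, and passed likewise in the interaction (limma adjusted p = 0.17). In all 3 genes the GFP Recurred arrays were the lowest of the 8. The Cre change of Raph1 was 0.47 (95% interval 0.12 to 0.82), an interval above 0 that reached past 1.5-fold.

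Only 2 called probe sets moved past the limit in the same direction in both genotypes, and both went further down in Cre cells. Rgs4, a regulator of G protein signalling, had 5.36 and 5.68 in Cre Recurred, 7.92 and 8.18 in Cre Naïve, 7.97 and 8.25 in GFP Recurred and 8.81 and 8.96 in GFP Naïve cells, an interaction of -1.76 (limma adjusted p = 0.17). Rbp4, the carrier of retinol in blood, had an interaction of -3.60, from changes of -4.30 in Cre and -0.70 in GFP cells. Rgs4 and Rgs20, members of 1 family, were thus called in different directions, and the 17 measured genes of that list had a median interaction of 0.02. The 7 probe sets that reached 1.5-fold in neither genotype were all higher, with interactions between 0.97 and 1.10. Bora, a cofactor of the mitotic kinases, is an example chosen after its values were seen, with an interaction of 0.97.

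Gene lists were described by the counts and medians of the same fit at the brightest probe set of each gene, without a test of the list. Over all 18193 genes the median interaction was 0.04 and 8253 were negative. The lists with the lowest medians were those of small leucine-rich proteoglycans (-0.87), matrix glycoproteins and crosslinkers (-0.83), cholesterol synthesis (-0.82), metalloproteinases and their inhibitors (-0.64), fibroblast markers (-0.63) and secreted inflammatory factors (-0.57). Few of their members passed, so these medians come from many values that did not. Leaving out Cre Recurred replicate 1 or GFP Recurred replicate 2 gave -0.31 or -0.47 for the matrix glycoproteins. The proteoglycan median was -0.52 without GFP Naïve replicate 2, -1.54 without GFP Naïve replicate 1 and -1.40 without Cre Recurred replicate 2, and -1.64 over probe sets above the median signal. That of the metalloproteinases was -0.40 without GFP Recurred replicate 2, -0.41 without GFP Naïve replicate 2 and -0.99 over probe sets above the median signal. For the inflammatory factors it was -0.15 without GFP Recurred replicate 2 and -0.32, -0.35 and -0.37 without GFP Naïve replicate 1, Cre Naïve replicate 1 and Cre Naïve replicate 2. The cholesterol and fibroblast medians moved by less than 1.5 times in each of the 11 alternatives.

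Of 19 measured genes of cholesterol synthesis, all 19 had a negative interaction, and 18 had a negative change in Cre cells with a positive one in GFP cells. The list's median change was -0.62 in Cre cells and 0.29 in GFP cells. None of the 19 passed in limma (adjusted p from 0.30 to 0.78), while 14 had an unadjusted p under 0.05, as did 4656 of all 45037 probe sets. Sqle, the squalene epoxidase that starts sterol ring formation, had 10.67 and 11.05 in Cre Recurred, 11.33 and 11.61 in Cre Naïve, 11.60 and 11.53 in GFP Recurred and 11.16 and 10.97 in GFP Naïve cells. Its Cre Recurred arrays lay below the Cre Naïve ones, and its GFP Recurred arrays above the GFP Naïve ones. The GFP Recurred and GFP Naïve arrays were free of overlap for only 8 of the 19 genes. Relative to each gene's mean over all arrays, the list's median signal was -0.39 and -0.21 in Cre Recurred and 0.24 and 0.24 in Cre Naïve cells. It was 0.34 and -0.09 in GFP Recurred and -0.05 and -0.14 in GFP Naïve cells. GFP Recurred replicate 2 thus lay between the GFP Naïve arrays, and only replicate 1 lay above them. Hmgcs1 and Dhcr7, enzymes of the first and of the last part of the pathway, had interactions of -1.59 and -1.42, and Tm7sf2, a sterol reductase, one of -1.39. The median interaction stayed between -1.01 and -0.58 over the alternatives.

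**Figure D4:**
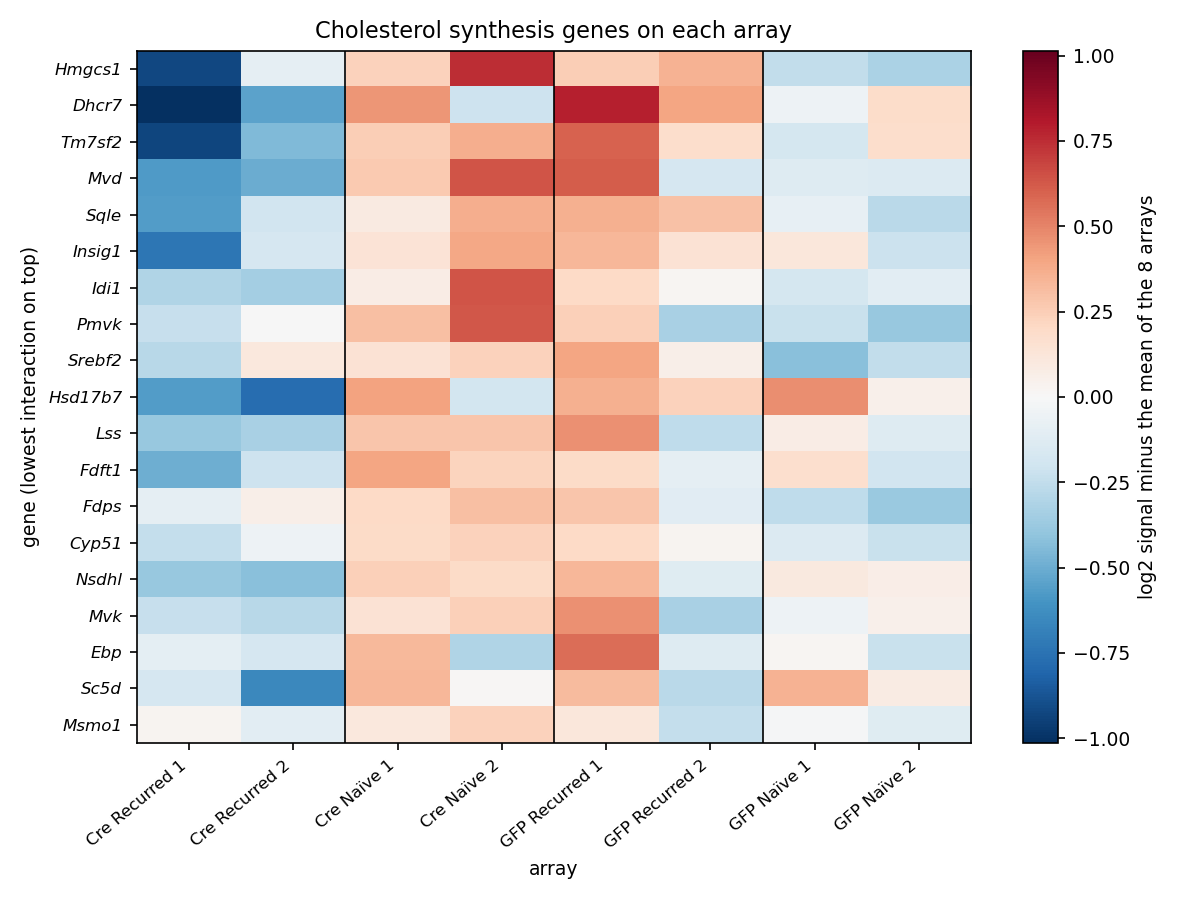
Log2 signal of the 19 measured cholesterol synthesis genes on each array, as the difference from each gene's mean over the 8 arrays (colour), with genes ordered by their interaction. The Cre Recurred columns are mostly blue and the Cre Naïve columns mostly red, while in GFP cells replicate 1 of the Recurred population is red for all 19 genes and replicate 2 is mixed.

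The matrix lists had negative medians as well, and their level differed between arrays of 1 population. Relative to each gene's mean over the 8 arrays, the median proteoglycan signal was -0.78 and -0.09 in Cre Recurred, 0.17 and -0.03 in Cre Naïve, 0.37 and 0.42 in GFP Recurred and -0.03 and -0.21 in GFP Naïve cells. That of the matrix glycoproteins was -0.69 and -0.09 in Cre Recurred, 0.10 and -0.04 in Cre Naïve, 0.10 and 0.46 in GFP Recurred and 0.14 and -0.05 in GFP Naïve cells. Cre Recurred replicate 1 was the lowest array for both lists, while replicate 2 lay close to the naïve arrays. Of 13 small leucine-rich proteoglycans, all 13 had a negative interaction and 1 (Lum) passed, lower. Fmod and Omd, the collagen-binding fibromodulin and osteomodulin, had -5.31 and -1.10 without passing (adjusted p = 0.47 each). For Fmod the arrays within a population differed strongly, with 4.11 and 9.01 in Cre Recurred, 11.08 and 8.87 in Cre Naïve, 10.74 and 11.09 in GFP Recurred and 9.97 and 8.07 in GFP Naïve cells. Of 45 matrix glycoproteins and crosslinkers, 37 were negative, with Thsd4 called lower and Loxl4, a lysyl oxidase that crosslinks collagen, called higher at 2.15 (limma adjusted p = 0.24). Cthrc1 and Tnc, secreted proteins of activated fibroblasts, had -5.45 and -2.22 and did not pass (adjusted p = 0.27 and 0.31). Of 32 collagens 23 were negative and 0 passed at their brightest probe sets, while Col8a1 passed at a dimmer one, higher. The collagen median was -0.37, and -0.13 without Cre Recurred replicate 1, -0.18 without GFP Recurred replicate 2 and -0.80 over probe sets above the median signal.

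Of the 17 fibroblast markers, 13 were negative and 0 passed. Prrx1, a mesenchymal transcription factor, had an interaction of -1.53 (adjusted p = 0.34), Fap, a surface protease of activated fibroblasts, one of -2.57 (adjusted p = 0.46), and Col1a2, a chain of collagen I, one of -0.86. The markers averaged between 9.30 and 9.92 on Cre Recurred, 9.99 and 10.43 on Cre Naïve, 10.48 and 10.60 on GFP Recurred and 10.24 and 10.42 on GFP Naïve arrays. The lower level of the marker list in Cre Recurred cells moved with the matrix genes above, and its part in them was not tested. In bulk RNA, fewer cells of a kind and less RNA per cell cannot be told apart.

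Of 36 measured genes of the TNF receptor and ligand superfamily, Tnfrsf11b was the only one called at its brightest probe set, with a list median of -0.04. Tnfrsf22 was called in the other direction at a dimmer probe set, with an interaction of 1.53 (limma adjusted p = 0.19). Tnfrsf21 and Tnfrsf9, receptors that signal to the cell interior, had -2.97 and -1.75 without passing, and Tnfrsf10b, the receptor for TRAIL, had 0.84. Of 33 Wnt ligands, receptors and targets, Wnt4, Ror1 and Ror2 were called lower and 17 had positive values. Among 13 secreted Wnt antagonists Sfrp1 was called, and Dkk3 at a dimmer probe set, while 9 had positive values. The median of the 13 was 0.11, but 5 of them had a mean above every array's median, and over probe sets above the median signal the list's median was -1.96. Of 40 secreted inflammatory factors 28 were negative and Ccl11 was called. Il1rn, the interleukin 1 receptor antagonist, and Ccl8, a monocyte chemokine, had -4.88 and -3.45 with adjusted p values of 0.28 and 0.29.

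Of 40 interferon response genes 31 were negative and 0 passed, and the median interaction was -0.36. It was -0.04 without GFP Naïve replicate 2 and -0.65 without GFP Naïve replicate 1, so that the value depended on which of the 2 GFP Naïve arrays was used. Zbp1 and Dhx58, sensors of nucleic acids, had -1.75 and -1.35 (adjusted p = 0.48 and 0.44).

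Genes of DNA replication that E2F factors activate ran the other way with small values. Of 28 measured G1/S E2F targets 25 had a positive interaction, with a median of 0.28, and 0 passed in limma. The list's median change was 0.19 in Cre cells and -0.09 in GFP cells, and the interaction's median stayed between 0.19 and 0.36 over the alternatives. Gins1 and Gins2, subunits of the replicative helicase, had interactions of 0.99 and 0.81 (adjusted p = 0.27 and 0.36), and Cdt1, which loads that helicase, had 0.84. For Gins1 the signals were 10.07 and 9.77 in Cre Recurred, 9.16 and 9.32 in Cre Naïve, 8.80 and 8.86 in GFP Recurred and 9.13 and 9.14 in GFP Naïve cells. The Cre Recurred arrays were the highest and the GFP Recurred arrays the lowest, in steps of under 1 log2 unit. Mitotic and p53 target genes had median interactions of 0.13 and 0.14 with 0 calls, and both medians changed sign in 2 of 11 alternatives.

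**Figure D5:**
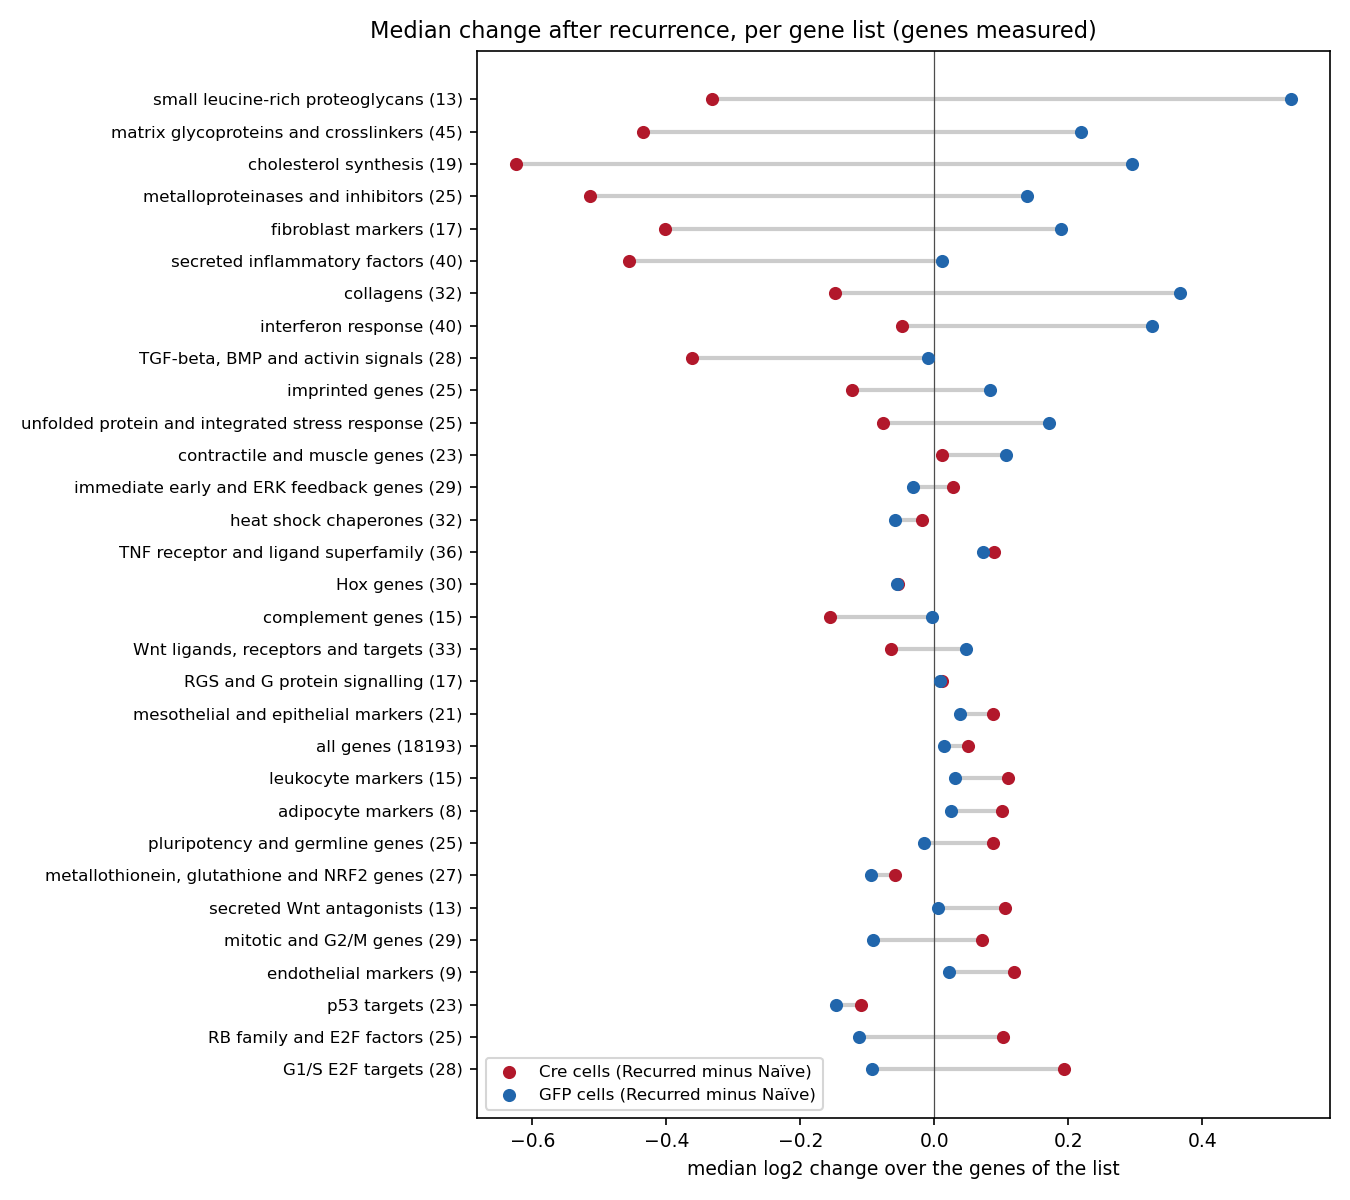
Median log2 change after recurrence over the measured genes of each list (number in brackets) in Cre cells (red) and in GFP cells (blue), with all genes for comparison; the grey line joins the 2 medians of a list and the lists are ordered by their median interaction. The proteoglycan, matrix and cholesterol lists have red points below 0 and blue points above 0, and the G1/S E2F targets the reverse.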

How the data were processed

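RNA of 4 MAF populations had been hybridized to 8 Affymetrix arrays, 2 per population. The authors deposited log2 RMA signals, 1 per probe set, made by background correction, quantile normalization and summary of the probes, and these were used as deposited. The RMA software is not given in the sources used here. Of 45101 probe sets, 64 controls were left out and 45037 tested, 34945 with 1 gene symbol, 932 with several and 9160 with none, by the platform annotation. Array medians ran from 5.37 to 5.41.

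The interaction was tested by limma (version 3.58.1, R 4.3.3) in a model holding the 4 population means and nothing else, with Benjamini-Hochberg adjustment over 45037 probe sets. Residual and prior degrees of freedom came to 4 and 3.07. The study named SAM for comparisons of 2 populations, which has no stated form for an interaction and was not run. Thresholds were 1.5-fold with an adjusted p under 0.25, or under 0.05. Classes were set by a 1.5-fold change within each genotype. In the 31 gene lists, each gene was taken at its brightest probe set. Genes named by class were taken at the called probe set with the smallest p, which was not always the brightest.

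Named genes were Tnfrsf11b and Hspa1a, up to 8 genes of each class and direction with the smallest p, the 4 or fewer members per list with the smallest interaction p, genes the study measured by RT-PCR, and those said to have been chosen after their values were seen. The comparison, classes, lists and genes were chosen with earlier results of these data known. Since the labels name the arrays only as biological replicates, p values measure the spread between these arrays. The number of arrays limits the precision. Promoters came from a RefSeq table on GRCm38.p6, in which 14368 of 18193 genes were found by Entrez ID. The fit was tested on simulated data. Alternatives were array weights, a prior of the spread that was trended and robust, treat with 1.2-fold, cyclic loess, median centring, the replicate number as a block, brighter probe sets, probe sets without shared-probe suffixes, 1 probe set per gene, other class limits and leaving out each array. Figures were drawn with matplotlib 3.10.9.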

Additional observations from a re-analysis of the deposited data

Results flagged for a closer look

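The changes after recurrence differed between Cre and GFP cells, by limma's test of the difference itself at the study's thresholds, for 180 probe sets. The 5 with an adjusted p under 0.1 are listed here. Tnfrsf11b had an interaction of -4.51, with opposite changes in the 2 genotypes. 2210016F16Rik, Klhl23 and Hspa1a had interactions of -3.70, -2.29 and -3.49, with a change of 1.5-fold or more in Cre cells only. A probe set without a gene symbol in the annotation had an interaction of -2.34. None passed at an adjusted p under 0.05, where 4656 probe sets had an unadjusted p under 0.05. With 2 arrays per population, no single array could be set against the others of its population.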

How the results depend on the processing

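Across the alternatives, 1298 single-gene values kept their side of the threshold, 342 lost it, 51 gained it and 0 reversed, whereas some list medians near 0 changed sign. The count of 180 moved to 292 with array weights (equal within each population) and 61 with treat, and ranged from 0 to 2953 with 1 array left out. Opposite changes numbered 111 with array weights, 26 with treat, 140 at a 1.2-fold and 21 at a 2-fold class limit, and 0 to 562 with an array left out. Changes in Cre cells only numbered 139, 28, 32 at 1.2-fold and 133 with 1 probe set per gene, and 0 to 1787 with an array left out. Changes in GFP cells only numbered 5 with treat, 3 at 1.2-fold and 8 with an unadjusted p as the class limit, and 0 to 145 with an array left out. Unequal changes in 1 direction numbered 5 at 1.2-fold, 0 at 2-fold and 0 to 14 with an array left out. At the stricter threshold 2 passed with array weights, 4 with the trended and robust prior, 4 with median centring, 4 without shared-probe suffixes, 3 with 1 probe set per gene and 0 to 206 with an array left out. Tnfrsf11b lay between -4.74 and -4.28 and Hspa1a between -3.74 and -3.24 with an array left out.

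Of the calls, 38.9% were higher, against 27.9% among brighter probe sets. A population reduced to 1 array borrows its spread from the other 3 populations. With the replicate number as a block 190 probe sets passed, 128 of them shared with the fit without it, 77 opposite and 83 in Cre cells only. The numbers do not pair the samples by any label, and deviations of same-numbered arrays correlated between -0.25 and 0.31. Signals at the bottom of the range, such as those of Dppa2 on 6 arrays, carry no detection call in RMA values, so fold changes against them are uncertain.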

Other observations

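Of the 180 probe sets, 136 also passed the study's thresholds for the change in Cre cells and 4 for the change in GFP cells, while 41 passed for neither and were called on the difference alone. Genes of the unfolded protein and integrated stress response had a negative interaction for 20 of 25 members, with a median of -0.22, a median change of -0.08 in Cre cells and 0.17 in GFP cells, and 0 calls. Its median stayed between -0.37 and -0.17 over the alternatives. Leukocyte, endothelial and adipocyte markers had median interactions of 0.05, 0.14 and 0.06 and 0 calls, and mesothelial and epithelial markers one of 0.02 and 0 calls.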
